A study of Homo sapiens with 6 samples.

Results

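The genes described here are 32 genes of the melanocyte lineage, of pigmentation and of melanoma dedifferentiation, measured in a human melanoma cell line with and without knockdown of the cohesin subunit STAG2. They were found by gene symbol from a written list, which applies no threshold to measured values but was drawn up with earlier results of these data known. All 32 symbols were found among the 57820 genes of the expression table, and 31 of them were among the 15605 genes with enough counts to be tested. The gene that was not tested is KIT.

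The RNA-seq libraries came from M14, an established human melanoma line that carried a doxycycline-inducible shRNA against STAG2. There were 3 WT libraries from cells grown without doxycycline and 3 KD libraries from cells grown with it for 5 days. Cells of both conditions carried the same shRNA construct, so an effect of doxycycline itself and an effect of the knockdown cannot be told apart. The methods of the study name hygromycin, blasticidin or puromycin for keeping stable lines, without saying which one these cells received. A single hairpin and a single line were used. The study describes the replicates as biologically independent, and the labels do not say how they were separated.

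Melanocytes arise from the neural crest and make melanin in melanosomes, which are lysosome-related organelles. MITF, a basic helix-loop-helix transcription factor, acts with SOX10 and PAX3 to switch on the enzymes and structural proteins of the melanosome. Melanomas can lose this programme, and cells in the dedifferentiated state typically carry the receptors NGFR and AXL in place of pigment proteins.

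Library totals lay between 24895998 and 35181733 expected counts. Levels are given as CPM, which are counts scaled to a common library size by the TMM method, always in the order of replicates 1, 2 and 3, and 3 counts corresponded to 0.087 to 0.112 CPM. STAG2 measured 66.5, 34.8 and 28.8 CPM in WT, against 16.0, 7.31 and 6.70 CPM in KD. Its log2 fold change was −2.12 (SE 0.43, adjusted p = 0.0342), and every KD library was below every WT library. The share of counts from mitochondrial genes was 5.07% in WT replicate 1 and between 2.12% and 2.94% in each of the other libraries. WT replicate 1 had the lowest total but the most genes with any count, 20646, and KD replicate 1 had the fewest, 16028. The replicate 1 libraries were therefore not alike in every respect.

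The libraries numbered 1 stood apart in both conditions. Over 10569 genes, deviations from the condition mean correlated between same-numbered WT and KD libraries with r of 0.562, 0.396 and 0.324 for numbers 1, 2 and 3, while the replicate 1 libraries correlated negatively, from −0.471 to −0.368, with the other numbers of the opposite condition. Deviations within a condition cancel out for each gene, so the positive value for number 1 forces negative values on balance. The negative values are therefore no separate evidence. WT replicate 2 with KD replicate 3 gave r of 0.261 and WT replicate 3 with KD replicate 2 gave 0.2, so the split was mainly between replicate 1 and the rest. Results by number assume a pairing of numbers 2 and 3 that these values do not establish. Comparisons are given by edgeR without a block and, where the call changes, with the replicate number as a block (the blocked test), and counts are also given without both replicate 1 libraries.

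MLANA, PMEL, TYR, SOX10, MITF and S100B, which define the melanocytic lineage, were all present, and the lowest value of any of them in any library was 13.7 CPM, for MLANA in KD replicate 2. Levels of different genes were compared only after division by exon length, as CPM per kilobase. In WT cells PMEL, the amyloid-forming protein of the melanosome matrix, was the highest member at 428.2 ± 424.3 CPM per kilobase (SD, n = 3) and ranked 86 among 15156 tested genes with a length. SOX10 followed at 128.3 ± 10.3 CPM per kilobase, then GPNMB at 90.5 ± 40.8, DCT at 83.5 ± 92.1 and TYR at 83.3 ± 54.9. SOX10 varied least of these between libraries, and the levels of GPNMB, DCT and TYR differed by less than their spread. With the longest transcript in place of all exons GPNMB, at 193.5 CPM per kilobase, came above SOX10, at 178.5, and the median of the members was 19.8. The lowest tested members were SOX9 at 0.886, TSPAN10 at 0.661 and OCA2 at 0.448 CPM per kilobase. The median over the 31 tested members was 14.8 CPM per kilobase, against 2.87 over the tested genes, and 27 members were above the latter.

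**Figure D1:**
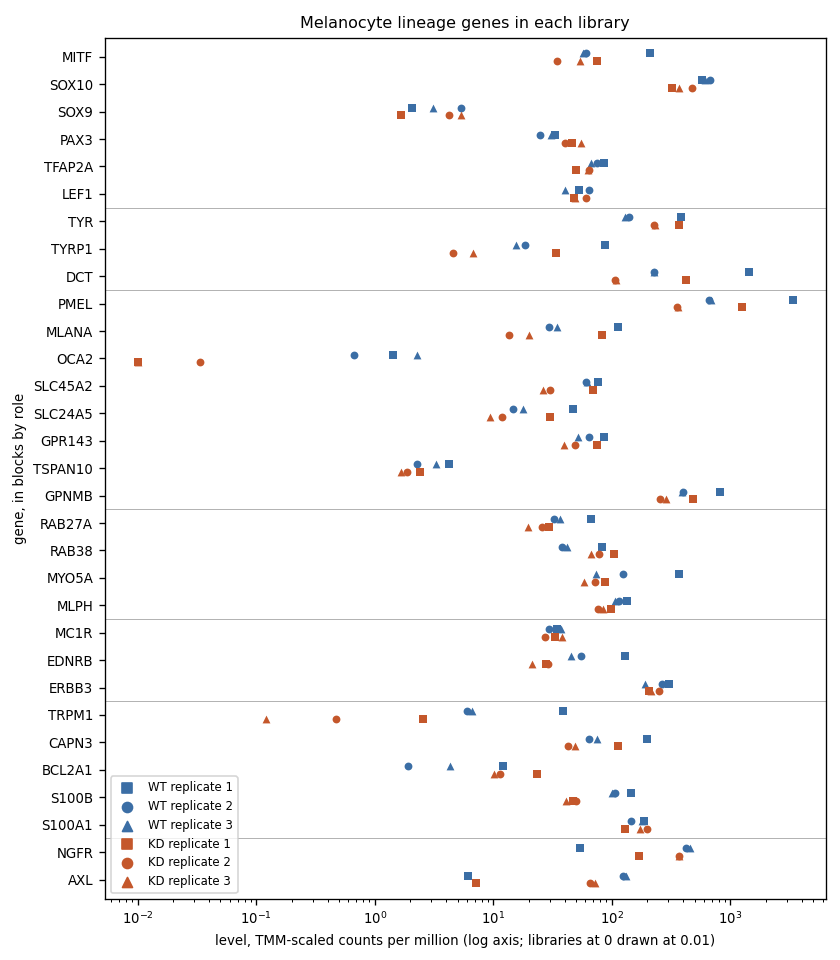
Level of each tested member in every library, as TMM-scaled CPM on a log axis, with blue for WT, orange for KD and the symbol shape for the replicate number. The squares of replicate 1 lie to the right of the other shapes for most pigment genes and to the left for SOX9, NGFR and AXL, and libraries with 0 counts are drawn at 0.01.

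Most of these genes were lower in the KD libraries, although few passed the test without the replicate block. The median log2 fold change of the 31 tested members was −0.64, with 25 below 0, whereas the median over all 15605 genes was −0.03, with 8119 below 0. Only S100B passed at an adjusted p under 0.05, as a decrease, in a comparison in which 0.839% of all genes fell and 1.75% rose. No member rose (0 also in DESeq2 and limma-voom). At an unadjusted p under 0.05 there were 1 higher and 8 lower. No share of all genes is given at that threshold, and the adjusted shares above do not apply to it. With the blocked test 13 members fell, against 4.42% of all genes, and 3 rose, against 5.10%. The members that fell were SOX10, TYRP1, DCT, PMEL, MLANA, SLC45A2, GPNMB, RAB27A, MYO5A, EDNRB, TRPM1, CAPN3 and S100B, and those that rose were PAX3, RAB38 and BCL2A1. The median of the members with the block was −0.62. WT replicate 1 weighed heavily on the folds without the block. When it alone was left out, the median of the members was −0.16, and the log2 fold change was −0.12 for MITF, −0.20 for TYRP1, −0.13 for DCT, −0.05 for PMEL, −0.04 for CAPN3 and 0.28 for MLANA. In a bulk culture, fewer cells that express a gene and less of its RNA per cell cannot be told apart.

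The counts without both replicate 1 libraries, which left 2 libraries a condition, lay between these. There 8 members fell (TYRP1, DCT, PMEL, SLC45A2, EDNRB, TRPM1, S100B and AXL), against 1.85% of all 15991 genes tested, and 2 rose (TYR and RAB38), against 2.88%. SOX10, PAX3, MLANA, GPNMB, RAB27A, MYO5A, CAPN3 and BCL2A1 passed the blocked test but not this smaller one.

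Counted library by library, all 3 KD libraries lay below all 3 WT libraries for 8 members, against 10.5% of all tested genes. These were SOX10, TFAP2A, RAB27A, MLPH, EDNRB, TRPM1, S100B and OCA2, the last of which was tested only because of its WT counts. PAX3 was the member with all KD libraries above all WT libraries, against 11.8% of all genes. For each of these 9 members the exact two-sided permutation test gave p = 0.1, which is the smallest value that 3 against 3 libraries allow. That value follows from the lack of overlap by which they were picked, so it adds no support. Within same-numbered pairs, KD was below WT in all 3 pairs for 20 members, against 22.8% of all genes, and above WT in all 3 for 3 members, against 23.0%. The median log2 ratio of KD to WT over the members was −0.59, −0.45 and −0.43 in pairs 1, 2 and 3.

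**Figure D2:**
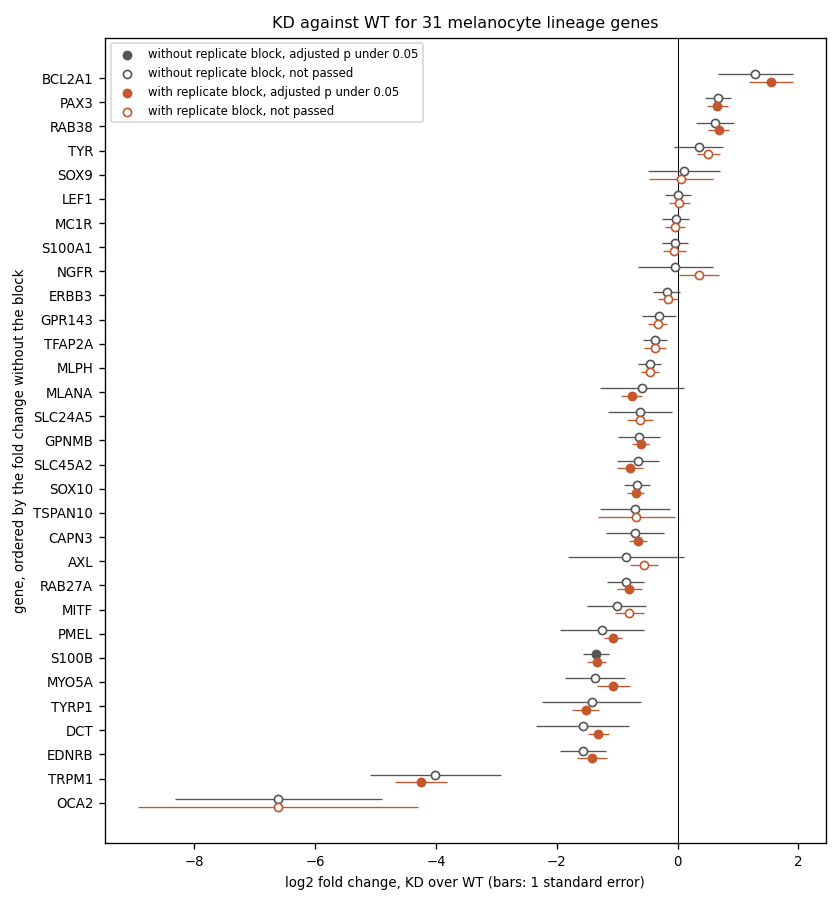
Log2 fold change of KD over WT for the 31 tested members, from the test without a replicate block (grey) and with it (orange), with bars of 1 standard error and filled points for an adjusted p under 0.05. For most genes the points change little between the tests and the bars shorten, and the fold of OCA2 rests on a single KD count and depends on the prior count.

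Among the transcription factors, SOX10 was lower and PAX3 higher in KD. MITF (chr3:69788607-70017487 on GRCh37), the master regulator of the lineage, measured 211.1, 61.0 and 56.7 CPM in WT, against 74.9, 34.4 and 54.2 CPM in KD. WT replicate 1 was far above the other WT libraries, and KD replicate 1 was above WT replicates 2 and 3. Its log2 fold change was −1.01 (SE 0.49, adjusted p = 0.396) and, with the block, −0.80 (SE 0.24, adjusted p = 0.0668), so MITF passed neither test. The log2 ratios of its pairs were −1.49, −0.82 and −0.06.

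SOX10 (chr22:38366693-38383429), an HMG-box factor of the neural crest and an activator of MITF, was at 572.4, 671.1 and 614.0 CPM in WT and at 323.9, 473.9 and 366.3 CPM in KD. It was not raised in replicate 1, and the conditions did not overlap. Its log2 fold change was −0.67 (SE 0.21, adjusted p = 0.151), and with the block −0.69 (SE 0.14, adjusted p = 0.0123). PAX3 (chr2:223064606-223163717), a paired-box factor that also acts on MITF and marks melanoblasts, was at 33.3, 24.8 and 31 CPM in WT and at 45.9, 40.1 and 55.4 CPM in KD. All KD libraries were above all WT libraries, with a log2 fold change of 0.67 (SE 0.22, adjusted p = 0.175), and with the block of 0.66 (SE 0.17, adjusted p = 0.0393). SOX10 and PAX3 thus moved in opposite directions by a similar size on the log2 scale.

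TFAP2A, an AP-2 factor of the neural crest, lay between 67.3 and 85.3 CPM in WT and between 49.7 and 64.2 CPM in KD. The ranges did not overlap, but the log2 fold change of −0.37 did not pass without the block (adjusted p = 0.441) or with it (adjusted p = 0.249). LEF1, a nuclear partner of beta-catenin, lay between 40.0 and 63.8 CPM in WT and between 48.2 and 60.1 CPM in KD, so the KD values fell inside the WT range. SOX9, a relative of SOX10 often linked to the dedifferentiated state, was low, at 2.05 to 5.31 CPM in WT and 1.68 to 5.32 CPM in KD. It was lowest in the replicate 1 library of each condition, the reverse of the pigment genes.

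The melanin enzymes were not lowered together, since TYRP1 and DCT fell in the blocked test and TYR did not. The hexamer CATGTG is the core of the E-box that MITF binds in promoters of pigment genes, and it was searched as letters on both strands in windows of 250 bases before to 50 bases after annotated starts. Windows were taken from RefSeq on GRCh38.p14 and covered 24 members with 38 windows, while SOX10, SOX9, PMEL, SLC45A2, RAB38, S100B, NGFR and ERBB3 had no entry. The hexamer was present in 15 of the 38 windows (39.47%), against 11.1% of all 35116 windows, and the form TCATGTG, which contains it, in 8 of them (21.05%), against 2.92%. CACGTG, the palindromic E-box, which cannot match where CATGTG does, was in 1 window (2.63%, of MLPH), against 7.26%. The bases before the start are shown for the melanin enzymes, for OCA2 and TRPM1, the members with the largest log2 differences below 0, and for BCL2A1, the member with the largest above 0. Each runs 5′ to 3′ in the direction of the gene, and capitals mark CATGTG, or CACATG where the hexamer lies on the opposite strand.
TYR: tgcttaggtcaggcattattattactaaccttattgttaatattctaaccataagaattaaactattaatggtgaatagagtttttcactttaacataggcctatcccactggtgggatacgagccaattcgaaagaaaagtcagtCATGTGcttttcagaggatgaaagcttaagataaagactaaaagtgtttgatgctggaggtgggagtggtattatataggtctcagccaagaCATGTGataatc
TYRP1: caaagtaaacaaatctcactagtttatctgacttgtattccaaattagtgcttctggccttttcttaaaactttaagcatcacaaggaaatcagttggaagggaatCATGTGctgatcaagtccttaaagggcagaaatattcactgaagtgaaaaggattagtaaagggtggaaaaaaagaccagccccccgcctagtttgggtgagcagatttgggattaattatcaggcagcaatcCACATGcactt
DCT: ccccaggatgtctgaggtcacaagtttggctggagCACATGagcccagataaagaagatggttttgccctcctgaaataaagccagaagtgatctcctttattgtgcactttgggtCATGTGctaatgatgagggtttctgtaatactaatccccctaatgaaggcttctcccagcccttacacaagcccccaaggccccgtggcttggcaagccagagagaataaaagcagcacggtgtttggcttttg
OCA2: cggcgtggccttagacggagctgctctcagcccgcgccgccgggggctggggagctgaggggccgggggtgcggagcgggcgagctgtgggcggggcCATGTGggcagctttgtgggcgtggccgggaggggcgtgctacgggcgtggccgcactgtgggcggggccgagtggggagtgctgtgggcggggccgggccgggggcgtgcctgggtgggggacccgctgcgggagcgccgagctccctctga
TRPM1: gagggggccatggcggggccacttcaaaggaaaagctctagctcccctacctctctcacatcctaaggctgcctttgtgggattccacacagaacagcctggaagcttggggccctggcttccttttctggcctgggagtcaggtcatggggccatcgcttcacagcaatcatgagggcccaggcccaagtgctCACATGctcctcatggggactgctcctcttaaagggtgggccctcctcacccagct
BCL2A1: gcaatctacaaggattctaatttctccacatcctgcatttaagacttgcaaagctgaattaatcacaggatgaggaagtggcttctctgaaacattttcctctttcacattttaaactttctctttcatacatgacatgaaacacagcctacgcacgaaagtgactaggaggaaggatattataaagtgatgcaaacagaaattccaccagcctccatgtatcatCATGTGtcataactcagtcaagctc
These stretches are chr11:89177625-89177874 on the plus strand for TYR, chr9:12693135-12693384 on the plus strand for TYRP1 and chr13:94479683-94479932 on the minus strand for DCT. They are chr15:28099316-28099565 on the minus strand for OCA2, chr15:31101726-31101975 on the minus strand for TRPM1 and chr15:79971197-79971446 on the minus strand for BCL2A1. A match of letters is a description and not a shown binding site.

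Tyrosinase (TYR, chr11:88911043-89028927 on GRCh37) catalyses the rate-limiting step of melanin synthesis, and its window above held the hexamer 104 and 12 bases before the start. It was at 380.2, 139.8 and 128.1 CPM in WT and at 367.0, 227.3 and 233.2 CPM in KD. The replicate 1 libraries of both conditions were alike, and the KD libraries numbered 2 and 3 were above their WT counterparts. TYR had a log2 fold change of 0.35 (SE 0.40, adjusted p = 0.792), and with the block 0.51 (SE 0.19, adjusted p = 0.129). Without both replicate 1 libraries TYR rose, with a log2 fold change of 0.79 (SE 0.15, adjusted p = 0.0272).

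TYRP1 (chr9:12685439-12710285), a tyrosinase-related protein that stabilises tyrosinase, held the hexamer 144 and 11 bases before its start. It was at 87.7, 18.4 and 15.7 CPM in WT and at 34.0, 4.60 and 6.79 CPM in KD. KD was lower in each pair, but KD replicate 1 was above WT replicates 2 and 3. The log2 fold change was −1.42 (SE 0.82, adjusted p = 0.491), and with the block −1.52 (SE 0.22, adjusted p = 0.00191).

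DCT (chr13:95089065-95131936), the dopachrome tautomerase, held the hexamer 215 and 134 bases before the start shown above. The window of its other annotated start held no match. DCT was at 1431.7, 228.5 and 228.2 CPM in WT and at 421.4, 106.3 and 109.3 CPM in KD. As for TYRP1, KD was below WT in each pair and both replicate 1 libraries were above the rest. DCT had a log2 fold change of −1.57 (SE 0.77, adjusted p = 0.398), and with the block −1.31 (SE 0.17, adjusted p = 0.00109).

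The contrast among the enzymes was clearer as a ratio within each library, a measure chosen after the values were seen. The ratio of DCT to TYR counts was 3.77, 1.63 and 1.78 in WT and 1.15, 0.468 and 0.469 in KD. That of TYRP1 to TYR was 0.231, 0.132 and 0.123 in WT and 0.0928, 0.0202 and 0.0291 in KD. Every KD library was below every WT library for both ratios, replicate 1 included, with a mean log2 difference of −1.81 for DCT and −2.03 for TYRP1. The exact two-sided permutation test gave p = 0.1, the smallest possible. That value follows from the lack of overlap, and for a measure chosen in this way it is a description.

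Of the 8 melanosome matrix, channel and membrane proteins, all had a log2 fold change below 0, as did 8119 of all 15605 genes, and 4 fell in the blocked test, against 4.42% of all genes. PMEL (chr12:56347889-56367101), which forms the fibrils on which melanin is laid down, was at 3370.5, 661.7 and 683.5 CPM in WT and at 1254.3, 357.7 and 364.3 CPM in KD. The KD libraries numbered 2 and 3 were the lowest of the 6, and both replicate 1 libraries were above the rest. Its log2 fold change was −1.25 (SE 0.69, adjusted p = 0.462), and with the block −1.07 (SE 0.15, adjusted p = 0.00179). MLANA (chr9:5890889-5910606), the melanosomal antigen Melan-A, was at 112.7, 29.3 and 34.2 CPM in WT and at 83.4, 13.7 and 20.1 CPM in KD. The pairs gave log2 ratios of −0.43, −1.09 and −0.77, with a log2 fold change of −0.59 (SE 0.69, adjusted p = 0.796), and with the block of −0.76 (SE 0.18, adjusted p = 0.0275).

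GPNMB, a glycoprotein related to PMEL, was at 813.0, 399.1 and 391.5 CPM in WT and at 487.8, 254.7 and 285.7 CPM in KD. GPNMB had a log2 fold change of −0.64 (SE 0.35, adjusted p = 0.453), and with the block of −0.61 (SE 0.14, adjusted p = 0.0202). SLC45A2, a melanosomal transporter that affects organelle pH, was at 76.7, 60.7 and 62.3 CPM in WT and at 69.5, 30.1 and 26.5 CPM in KD. Its KD replicate 1 library was inside the WT range and the other KD libraries were below it. It had a log2 fold change of −0.66 (SE 0.35, adjusted p = 0.433), and with the block of −0.79 (SE 0.22, adjusted p = 0.048). Without the block, leaving out KD replicate 1 gave −1.23 (adjusted p = 0.0463) and leaving out WT replicate 1 gave −0.56 (adjusted p = 0.487).

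OCA2 (chr15:28000021-28344461), the melanosomal anion channel of the P protein, was nearly undetected in KD. It had 38, 23 and 63 expected counts in the WT libraries and 0, 1 and 0 in the KD libraries, or 1.4, 0.667 and 2.29 CPM in WT. The summed WT counts, set against the single KD count with library size taken into account, gave a ratio of 131.6 (95% exact interval 23.2 to 5238, for counting error only). The adjusted p was 0.0883 without and 0.11 with the block in edgeR, and 0.00236 in DESeq2, so the call depended on the tool. OCA2 passed the filter on low counts through the WT libraries alone, so that a difference was built into its being tested. Its ratio, these p-values and its lack of overlap between conditions are therefore a description. Its promoter window held the hexamer 153 bases before the start.

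SLC24A5, a melanosomal exchanger, lay between 14.6 and 46.7 CPM in WT and between 9.33 and 30.3 CPM in KD. GPR143, a melanosomal receptor with the hexamer 61 and 33 bases before its start, lay between 52.4 and 85.4 CPM in WT and between 39.4 and 74.9 CPM in KD. TSPAN10, a tetraspanin of pigment cells, lay between 2.29 and 4.25 CPM in WT and between 1.68 and 2.43 CPM in KD. All were below WT in each pair, none passed either test, and the blocked adjusted p was 0.106, 0.24 and 0.602 in that order.

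**Figure D3:**
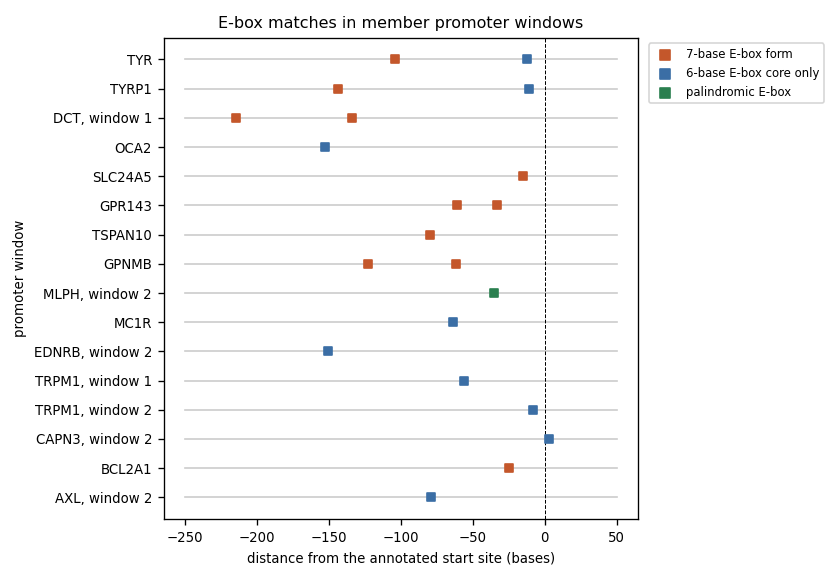
Positions of hexamer matches in the promoter windows of members that hold any, in bases from the annotated start (dashed line), coloured by the form of the match. Most matches lie within 151 bases before the start, and TYR, TYRP1, DCT, GPR143 and GPNMB each hold a pair of matches.

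Members with and without the hexamer both included genes that fell and genes that rose. Of the 14 members with CATGTG in a window, 6 fell and 1 rose in the blocked test. Of the 9 tested members with a window but no match, 3 fell and 1 rose, and of the 8 members without a window, 4 fell and 1 rose. Of the members whose windows are shown above, TYRP1, DCT and TRPM1 fell in the blocked test and BCL2A1 rose. TYR and OCA2 did not pass it, and each of these members held the hexamer. Over all tested genes, 4.42% fell and 5.10% rose in the blocked test. The counts by hexamer are descriptive, and no test between these groups of members was made.

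Of the 4 genes of melanosome transport and sorting, RAB27A, MYO5A and MLPH were below WT and RAB38 above WT in each pair. RAB27A, the small GTPase that marks mature melanosomes, was at 67.1, 32.3 and 36.7 CPM in WT and at 29.7, 25.9 and 19.6 CPM in KD, without overlap. RAB27A had a log2 fold change of −0.86 (SE 0.31, adjusted p = 0.217), and with the block of −0.80 (SE 0.21, adjusted p = 0.0362). Its exons overlap PIGBOS1 on the same strand, so the counting may have divided reads between them. MYO5A (chr15:52599478-52821329), the myosin motor of the same complex, was at 366.0, 123.5 and 73.7 CPM in WT and at 86.9, 71.9 and 58.8 CPM in KD. The conditions overlapped because WT replicate 3 was below KD replicate 1, and the difference was uneven, with pair log2 ratios of −2.07, −0.78 and −0.33. MYO5A had a log2 fold change of −1.37 (SE 0.50, adjusted p = 0.217), and with the block of −1.06 (SE 0.28, adjusted p = 0.0419).

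MLPH, which links RAB27A to MYO5A, was at 134.8, 116.0 and 106.7 CPM in WT and at 99.1, 76.0 and 85.0 CPM in KD. The libraries did not overlap, yet the log2 fold change of −0.46 passed neither test (adjusted p = 0.305, and 0.0829 with the block). RAB38, a GTPase that sorts tyrosinase and TYRP1 to melanosomes, was at 82.9, 37.9 and 42.3 CPM in WT and at 104.6, 78.7 and 66.9 CPM in KD. It was higher in KD in each pair. RAB38 had a log2 fold change of 0.62 (SE 0.31, adjusted p = 0.418), and with the block of 0.68 (SE 0.18, adjusted p = 0.0385). RAB38 therefore went opposite to RAB27A, a GTPase of the same organelle.

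Of the receptors through which melanocytes receive signals, EDNRB had the largest difference. EDNRB (chr13:78469616-78549664), the endothelin receptor needed for melanoblast migration, was at 129.7, 54.7 and 45.5 CPM in WT and at 27.7, 28.7 and 21.2 CPM in KD. All KD libraries were below all WT libraries, and the replicate 1 library was raised in WT but not in KD. Its log2 fold change was −1.57 (SE 0.38, adjusted p = 0.0658), and with the block −1.42 (SE 0.25, adjusted p = 0.00585). Without WT replicate 1 it was −0.96 (adjusted p = 0.0485).

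MC1R, the receptor for alpha-MSH that controls the type of melanin made, was at 34.7, 29.6 and 37.1 CPM in WT and at 33.4, 27.5 and 38.1 CPM in KD. The libraries interleaved and the log2 fold change was −0.03 (SE 0.22, adjusted p = 0.971), although MC1R shares exons with TCF25 and its counts are therefore uncertain. ERBB3, a neuregulin receptor, lay between 192.4 and 303.6 CPM in WT and between 204.7 and 252.6 CPM in KD, with a log2 fold change of −0.18 (adjusted p = 0.804). EDNRB, ERBB3 and CAPN3 also share exon sequence with an unnamed gene on the same strand. KIT, the receptor of stem cell factor, had 2 counts in WT replicate 1 and 0 in each of the other libraries, which is at or below the floor in both conditions, so no fold is given.

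Among the other MITF targets and lineage markers, S100B and TRPM1 had the clearest differences. S100B (chr21:48018517-48025121), a calcium-binding protein used as a melanoma serum marker, was at 144.6, 106.4 and 101.0 CPM in WT and at 47.3, 49.5 and 40.8 CPM in KD. The conditions were far apart, and the lowest WT library exceeded the highest KD library by more than any KD library differed from another. The log2 fold change was −1.35 (SE 0.21, adjusted p = 0.00949), and in means the level dropped from 117.3 ± 23.8 to 45.9 ± 4.5 CPM (SD, n = 3). The call was lost without KD replicate 2 (adjusted p = 0.0555) or KD replicate 3 (adjusted p = 0.0865), while the fold change stayed between −1.46 and −1.18 whichever library was left out.

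TRPM1 (chr15:31293268-31453363), the melastatin channel first known from melanocytes, was at 39.0, 5.95 and 6.66 CPM in WT and at 2.58, 0.474 and 0.122 CPM in KD. Both conditions had replicate 1 as the highest library, and even that KD library was below every WT library. The log2 fold change was −4.01 (SE 1.08, adjusted p = 0.1), and with the block −4.25 (SE 0.43, adjusted p = 0.000226). The KD libraries held 83, 14 and 4 expected counts, so the size of the difference is less certain than its direction. With KD replicate 3 below 10 counts, TRPM1 was left out of the fit that required at least 10 counts in every library. Its windows held the hexamer 56 bases before the start shown above and 8 bases before another annotated start.

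CAPN3, a calpain with a melanocytic form, was at 196.8, 64.5 and 74.5 CPM in WT and at 113.2, 42.7 and 49.4 CPM in KD. CAPN3 had a log2 fold change of −0.71 (SE 0.48, adjusted p = 0.582), and with the block of −0.66 (SE 0.15, adjusted p = 0.0205). BCL2A1 (chr15:80253234-80263538), an anti-apoptotic protein that MITF is known to activate, was at 12.2, 1.91 and 4.33 CPM in WT and at 23.3, 11.4 and 10.1 CPM in KD. KD was above WT in each pair, and WT replicate 1 was inside the KD range. The log2 fold change was 1.29 (SE 0.62, adjusted p = 0.385), and with the block 1.55 (SE 0.36, adjusted p = 0.0229). S100A1, a calcium-binding relative of S100B, lay between 146.1 and 188.0 CPM in WT and between 130.0 and 197.6 CPM in KD, with a log2 fold change of −0.04 (adjusted p = 0.967).

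**Figure D4:**
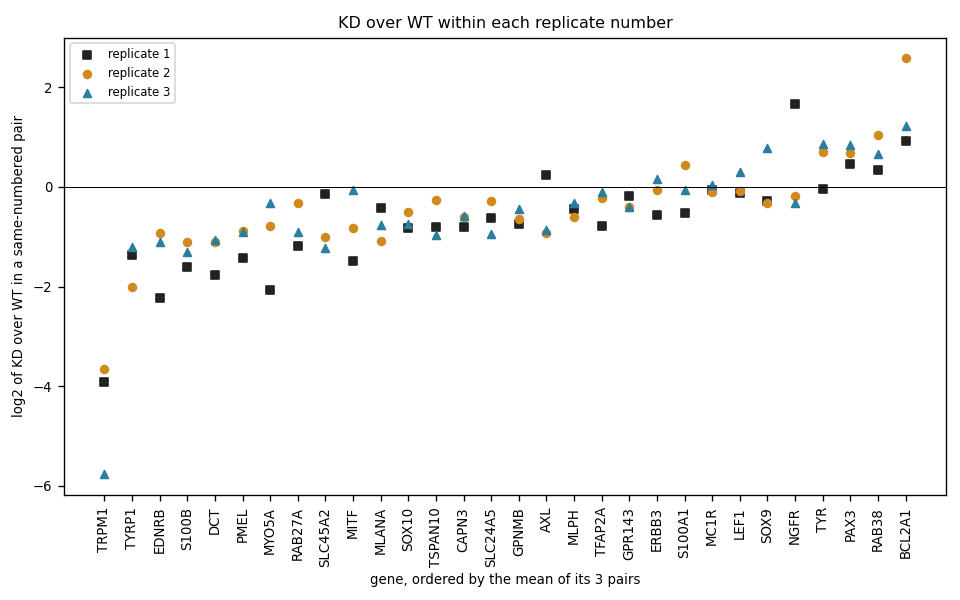
Log2 ratio of KD to WT within each same-numbered pair of libraries for the tested members, without OCA2, ordered by the mean of the 3 pairs. The pairs share a sign for most genes at either end, from TRPM1 (−3.92, −3.65 and −5.77) to BCL2A1 (0.93, 2.58 and 1.23), and disagree for NGFR, AXL and TYR.

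Neither dedifferentiation receptor rose in KD in any of the tests given here. NGFR (chr17:47572655-47592370), the low-affinity neurotrophin receptor of neural crest stem cells, was at 53.5, 423.8 and 460.8 CPM in WT and at 170.7, 371.7 and 368.1 CPM in KD. The pair numbered 1 had KD above WT (log2 ratio 1.67), whereas the other pairs had KD slightly below (−0.19 and −0.32). The log2 fold change was −0.04 (SE 0.62, adjusted p = 0.988), and with the block 0.36 (SE 0.33, adjusted p = 0.588). AXL (chr19:41725128-41767671), a receptor tyrosine kinase of the invasive state, was at 6.07, 123.3 and 132.3 CPM in WT and at 7.13, 65.4 and 72.3 CPM in KD. The replicate 1 libraries were nearly equal and very low, and the other KD libraries were below their WT counterparts. Its log2 fold change was −0.85 (SE 0.96, adjusted p = 0.787), with the block −0.56 (SE 0.23, adjusted p = 0.165), and without both replicate 1 libraries it fell by 0.88 on the log2 scale (adjusted p = 0.0226).

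The libraries numbered 1 differed from the rest in many of these genes. Both replicate 1 libraries were above the other 4 libraries for 13 members, against 15.2% of all tested genes, and below them for 3 members (SOX9, NGFR and AXL), against 12.8%. Those above were MITF, TYR, TYRP1, DCT, PMEL, MLANA, SLC45A2, SLC24A5, GPR143, GPNMB, RAB38, CAPN3 and BCL2A1. Replicate 1 over the mean of replicates 2 and 3 was 6.27 in WT and 3.91 in KD for DCT, 5.01 and 3.47 for PMEL, 5.14 and 5.98 for TYRP1, and 3.59 and 1.69 for MITF. For NGFR the same ratio was 0.121 in WT and 0.461 in KD, and for AXL 0.0475 and 0.103. The summed level of TYR, TYRP1, DCT, PMEL and MLANA was 5382.7, 1077.7 and 1089.8 CPM in WT and 2160.2, 709.6 and 733.7 CPM in KD. The sum of NGFR and AXL was 59.6, 547.1 and 593.1 CPM in WT and 177.8, 437.0 and 440.4 CPM in KD. Libraries with more pigment RNA thus had less NGFR and AXL RNA when the numbers are compared, whereas KD libraries numbered 2 and 3 had less of both sums than the WT libraries of those numbers. The labels do not say what the number stands for, and no cause of the split was tested.

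**Figure D5:**
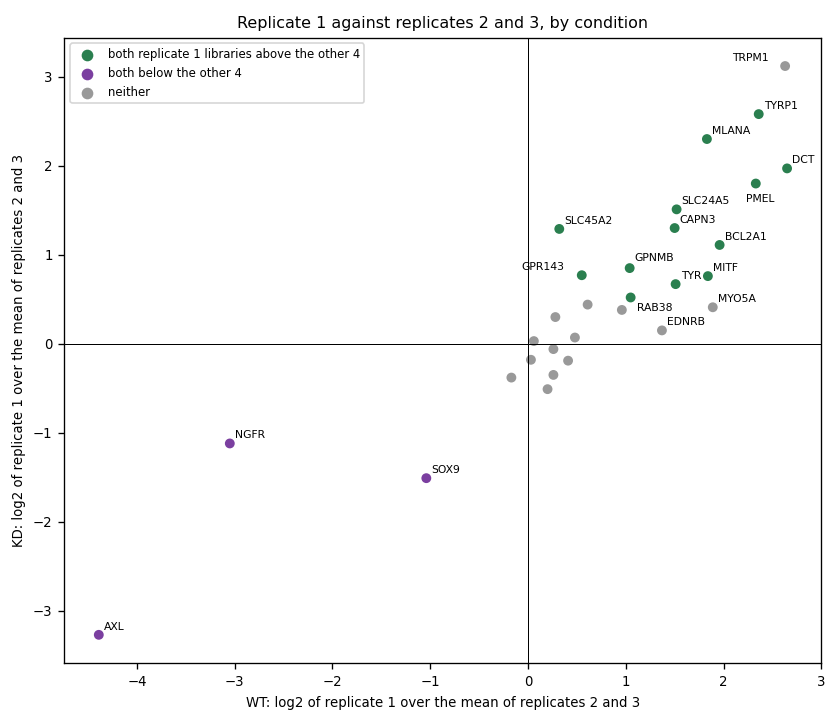
Log2 ratio of replicate 1 to the mean of replicates 2 and 3, in WT (horizontal axis) and in KD (vertical axis), for the tested members without OCA2. Pigment genes such as DCT, PMEL, TYRP1, MLANA and TRPM1 lie at the upper right, and AXL, NGFR and SOX9 at the lower left, while the grey points without a name near the centre are members whose replicate 1 libraries were not both above or both below the other 4.

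Markers of other cell types a culture could hold were low, with COL1A1 as the exception. The summed level of 6 fibroblast genes was 4.77 to 93.6 CPM in WT and 3.49 to 23.4 CPM in KD, most of it COL1A1, which was at 2.65, 85.1 and 58.1 CPM in WT and at 1.40, 19.4 and 17.7 CPM in KD. COL1A1 was thus low in both replicate 1 libraries, as AXL was. COL1A2 was at 1.23, 5.28 and 4.11 CPM in WT and at 0.996, 1.86 and 0.551 CPM in KD, so its replicate 1 library was the lowest in WT alone. COL3A1, PDGFRA, DCN and LUM did not exceed 1.74 CPM in any library. None of the 6 was at 0 in all libraries. The 5 keratinocyte and epithelial genes summed to 0.633 to 6.59 CPM in WT and 0.778 to 1.22 CPM in KD, with none at 0 throughout. The 5 leukocyte genes summed to 1.79 to 2.7 CPM in WT and 2.18 to 3.70 CPM in KD, with CD3E at 0 throughout. The 3 endothelial genes found summed to 2.51 to 3.80 CPM in WT and 2.08 to 5.72 CPM in KD. The part of these genes in the results above was not tested.

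Related genes came from 5 lists written beside the members, to be read against the same shares of all genes (0.839% lower and 1.75% higher without the block, 4.42% and 5.10% with it). Among 15 tested MITF relatives and neural crest factors, 1 fell and 0 rose, and in the blocked test 3 fell and 1 rose. The one that fell without the block was TFAP2B, an AP-2 factor close to TFAP2A, with a mean of 31 ± 1.77 CPM in WT, against 6.54 ± 2.61 CPM in KD (SD, n = 3), with a log2 fold change of −2.25 (SE 0.33, adjusted p = 0.00717). Of 25 genes of the melanosome biogenesis machinery, which build the organelle and sort its cargo, 0 passed in edgeR without the block, and 0 in DESeq2 and limma-voom. At an unadjusted p under 0.05, for which no share of all genes is given, there were 3 lower and 0 higher. In the blocked test 2 fell, the copper pump ATP7A and MREG. Of the 25, 10 were highest in both replicate 1 libraries, against 15.2% of all genes.

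Among 19 tested genes of the differentiated melanocytic state, 2 fell, and in the blocked test 6 fell and 0 rose. CITED1, a transcriptional co-regulator expressed in melanocytes, averaged 29.8 ± 5.85 CPM in WT, against 6.19 ± 2.17 CPM in KD (log2 fold change −2.27, SE 0.33, adjusted p = 0.00705). MBP, a myelin protein shared with Schwann cells, averaged 129.3 ± 41.0 CPM in WT, against 49.0 ± 8.72 CPM in KD (log2 fold change −1.40, SE 0.26, adjusted p = 0.023). Among 21 tested dedifferentiated and mesenchymal-like genes, 1 rose, and in the blocked test 4 rose and 3 fell. NT5E, the surface enzyme CD73, averaged 37.1 ± 10.2 CPM in WT, against 80.1 ± 7.39 CPM in KD (log2 fold change 1.11, SE 0.24, adjusted p = 0.046). The increases in the blocked test included TNC and PLAUR, and the decreases were LOXL2, NES and THBS1, so this list was divided in direction, and 14 of its genes were lowest in both replicate 1 libraries, against 12.8% of all genes. Of 8 tested ligands of these receptors and their partners, 0 passed in edgeR without or with the block, in DESeq2 or in limma-voom. At an unadjusted p under 0.05, again without a share of all genes, 1 was lower.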

How the data were processed

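The authors deposited expected counts per gene for the 6 RNA-seq libraries, made with STAR on hg19 and RSEM from poly(A)-selected directional libraries, and RSEM divides reads that match several genes. The gene annotation and strand setting are not given in the sources used here. Expected counts were rounded, filtered with filterByExpr, TMM-scaled and compared by the quasi-likelihood test of edgeR 4.0.16 in R 4.3.3, with Benjamini-Hochberg adjustment over 15605 genes. All tests were two-sided, and the pipeline was tested on simulated data. Where the log2 CPM of a gene was permuted, 0.1 CPM was added.

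Replicate numbers come from the sample titles. Deviations of all 3 same-numbered pairs correlated above 0.1, so the numbers were taken to pair the samples and the replicate number was also fitted as a block. WT replicate 2 with KD replicate 3 (r of 0.261) and WT replicate 3 with KD replicate 2 (0.2) also exceeded 0.1. The rule therefore does not establish the pairing of numbers 2 and 3, which the blocked test and the same-numbered pairs assume. Alternatives were DESeq2 1.42.0, limma-voom 3.58.1, upper-quartile scaling, other filters, unrounded counts, and leaving out each library or both replicate 1 libraries.

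All 32 members were named. From the related lists the rule took the 2 largest rises and 2 largest falls with an adjusted p under 0.05 and a mean of at least 1 CPM, and other genes were named after their values were seen. Members and lists were chosen with earlier results of these data known. Exon lengths and coordinates of genes are from the GENCODE annotation on GRCh37. No expression column was left unused, and the other assays of the study were not analysed here. A result of the related lists is not reported here.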

Additional observations from a re-analysis of the deposited data

How the results depend on the processing

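The count of members that passed was 1 of 31, and became 5 with DESeq2 and 16 with the replicate block. It became 2 of 29 with at least 10 counts in every library and 11 of 32 with no filter on low counts. It was 10 without both replicate 1 libraries, and ranged from 0 to 10 as libraries were left out. It was 0 without KD replicate 2 or KD replicate 3 and 3 without WT replicate 1 or KD replicate 1. The count of all genes that passed was 404 of 15605, and became 979 with DESeq2 and 1486 with the block, of the same 15605. It was 452 of 12743 with at least 10 counts in every library and 1103 of 24277 with no filter. Without single libraries or both replicate 1 libraries it ranged from 121 of 16515 to 757 of 15991. The median log2 fold change of the members lay between −0.67 and −0.61 in all fits with all 6 libraries and between −0.87 and −0.16 without libraries, the latter without WT replicate 1.

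Of 432 values of single members under an alternative, 367 kept direction and call, 43 newly passed, 2 no longer passed (S100B) and 20 changed sign. Sign changes occurred in SOX9 (−0.0 with limma-voom, −0.24 to 0.54 when libraries were left out), LEF1 (−0.0 with no filter, −0.02 with upper-quartile scaling, −0.15 to 0.17 by leaving out), NGFR (0.39 with limma-voom, 0.36 with the replicate block, −0.54 to 0.35 by leaving out), MLANA (−1.80 to 0.28), SLC24A5 (−1.31 to 0.06), MC1R (−0.17 to 0.08), ERBB3 (−0.35 to 0.04) and S100A1 (−0.18 to 0.19). Values for MLANA and SLC24A5 turned positive when WT replicate 1 was left out. The cause of these changes was not tested. With 3 libraries a condition and replicate 1 apart from the rest, small differences could not be shown at this spread.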
